A study of Mus musculus with 2 samples.

Results

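Ribosome biogenesis and nucleolar factors were taken from the table of F123 cells by gene name: Nop, Utp, Nol and Rrp genes and a set of single names such as Fbl, Ncl, Npm1, Npm3, Pes1, Bop1, Bms1 and Tsr1. The rule used no measured value. It found 75 gene records of 53 genes, out of 37178 records of 29833 genes, where a record is 1 gene with 1 transcript biotype. Of these, 53 records were protein-coding and 22 were noncoding transcripts of the same genes (lncRNA records).

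F123 is an established male mouse embryonic stem cell (mESC) line from a cross of S129/Jae and Cast mice, the father being CAST and the mother S129. The only group was untreated F123 cells, grown with LIF on feeder fibroblasts and then without feeders before harvest. Total RNA of 2 replicates was made into stranded libraries, and the deposited table pools both. No spread between replicates, clones or mice can therefore be computed, and all intervals, standard errors and p-values below cover counting error only.

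Ribosomes are built in the nucleolus, where a long precursor RNA is transcribed, chemically modified, folded and cut into the rRNAs of the small and the large subunit. Small nucleolar RNAs (snoRNAs) guide the modifications: box C/D particles carry 2′-O-methylation and box H/ACA particles carry pseudouridylation. The small-subunit processome assembles around the U3 snoRNA, while a separate set of factors, including the PeBoW complex, matures the large subunit, and nucleophosmin and nucleolin are abundant proteins of the nucleolus itself. Rapidly dividing cells such as mESCs are known for prominent nucleoli.

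Reads covering a base that differs between the strains were assigned to the CAST or the S129 allele. Reads that span more than 1 variant enter the sum repeatedly, so even the counting error may be understated. Expressed means a TPM of at least 1. TPM here is the reads over exons and introns of a record, scaled by length and library size. The length appears to be that of the genomic span, since both Utp18 records, equal in start and end, stood at 12.9 TPM. Levels can therefore depend on intron length as well as on RNA abundance. Allele-specific expression (ASE) means an adjusted p of at most 0.05, at least a 2-fold difference and expression, where p comes from a two-sided exact binomial test against equal shares with Benjamini-Hochberg adjustment over 18632 records. The label of the cells was checked on marker genes: Pou5f1 stood at 232 TPM, Sox2 at 297 and Nanog at 169. Coding records of the fibroblast markers Col1a1, Col3a1, Lum and Postn stood between 0.0369 and 0.670 TPM, Col1a2 at 1.01 and Thy1 at 3.06.

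By TPM, most ribosome biogenesis factors stood above the median expressed coding record, in a comparison that did not match genomic spans. Of the 53 coding records, 50 were expressed, with a median of 31.1 TPM against 6.70 TPM over all expressed coding records. A TPM of at least 10 was reached by 46 of the 50 (92%), against 38.0% of all expressed coding records. The 25th and 75th percentiles of the factors were 18.3 and 55.9 TPM. The lowest of the expressed coding records were Nol10, a processome protein, at 5.86 TPM, Utp25 at 6.50 TPM and Gar1, a box H/ACA protein, at 6.74 TPM. Their spans were 81638, 25871 and 4090 bp, respectively. A group of 3 genes carries a matching name without a known part in ribosome assembly, and its 5 records were all under a TPM of 1: Nol3, an inhibitor of apoptosis, at 0.691, Nol4 at 0.0388 and 0.0368, and Nol4l at 0.835 and 0.367.

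**Figure D1:**
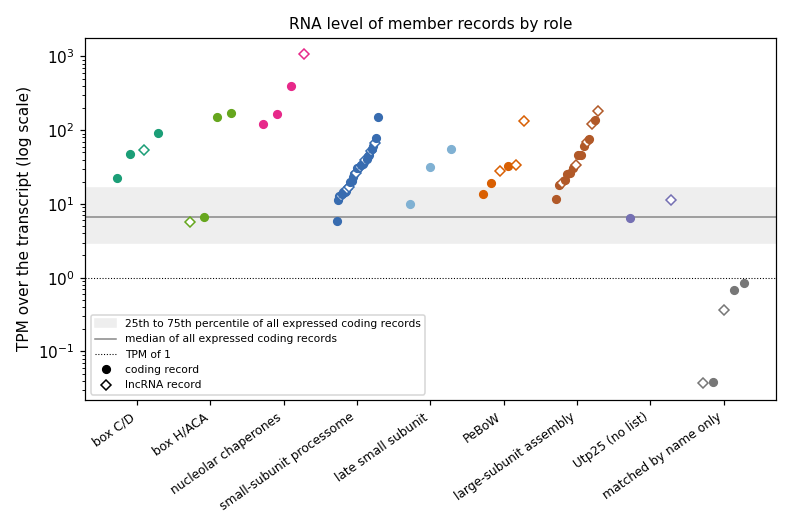
RNA level of each member record (TPM over the transcript, log scale, both replicates pooled) by role, with filled circles for coding and open diamonds for lncRNA records; the grey band and line mark the 25th to 75th percentile and the median (6.70 TPM) of all expressed coding records. Records of the assembly roles lie mostly above the band, from 5.66 to 1071 TPM, while the 5 records matched by name only lie below a TPM of 1.

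By level, Npm1 led. The coding record of Npm1, nucleophosmin, a chaperone of the granular nucleolus, stood at 403 TPM, and its lncRNA record at 1071 TPM, the highest of all 75. That lncRNA record spans 1252 bp inside the gene, so reads of the coding transcript can fall into it and the levels of both records cannot be told apart. Of the other nucleolar chaperones, Ncl, nucleolin, an RNA-binding protein, stood at 166 TPM, and Npm3, a relative of nucleophosmin, at 121 TPM. Other high coding records were Nop10 at 170 TPM and Nhp2 at 149 TPM, both core proteins of box H/ACA particles, the processome protein Utp3 at 152 TPM, and Ebna1bp2, a large-subunit factor, at 136 TPM. Nop56, a core protein of box C/D particles, stood at 92.9 TPM in a record of 1607 bp, which covers only part of the gene. Within the box H/ACA trio the TPM values were far apart, with Gar1 at 6.74 beside 149 and 170 for Nhp2 and Nop10. The Gar1 coding record of 4090 bp lies inside its lncRNA record of 5790 bp (5.66 TPM), so it covers only part of the gene. The Nhp2 and Nop10 records span 3980 and 1344 bp. In the PeBoW trio, Pes1 stood at 32.5, Bop1 at 19.2 and Wdr12 at 13.6 TPM, over spans of 16030, 24289 and 28124 bp. The lncRNA records of Bop1 (133 TPM), Rrp1b (184 TPM) and Ebna1bp2 (121 TPM) were also among the 12 highest, each overlapping its coding record.

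A share of 6 of the 50 expressed member genes (12%) held an annotated snoRNA gene in their span on the same strand, against 194 of 10896 expressed coding genes (1.78%), by GENCODE M21 on GRCm38. The hosts were Ncl, Nop53, Nop56, Nop58, Tsr1 and Wdr43, with 18 snoRNAs. The share is a description of the annotation, and levels of snoRNAs were not analysed here. Of the 18, 9 in 5 hosts contained the letters TGATGA, as in a C box, followed at any distance by CTGA, as in a D box. Box C/D proteins such as fibrillarin, Nop56 and Nop58 assemble on these motifs. In Snord53 of Wdr43 the CTGA lies mid-sequence, away from the 3′ end, so the 9 are matches of letters. Of the 9, 5 are shown 5′ to 3′, 1 from each host, with both boxes in capitals.
Snord110 in Nop56 (chr2:130275506-130275573, plus strand, GRCm38): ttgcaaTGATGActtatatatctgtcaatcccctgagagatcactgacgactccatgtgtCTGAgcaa
Snord11 in Nop58 (chr1:59704790-59704873, plus strand, GRCm38): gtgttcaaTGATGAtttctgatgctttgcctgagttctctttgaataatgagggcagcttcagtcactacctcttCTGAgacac
Snord82 in Ncl (chr1:86356261-86356330, minus strand, GRCm38): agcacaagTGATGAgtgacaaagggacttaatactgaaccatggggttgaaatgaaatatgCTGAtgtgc
Snord23 in Nop53 (chr7:15938762-15938870, minus strand, GRCm38): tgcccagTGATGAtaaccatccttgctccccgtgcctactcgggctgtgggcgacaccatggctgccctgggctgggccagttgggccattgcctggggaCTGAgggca
Snord92 in Wdr43 (chr17:71631281-71631365, plus strand, GRCm38): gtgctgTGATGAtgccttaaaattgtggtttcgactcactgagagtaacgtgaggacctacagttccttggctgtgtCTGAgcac

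The question of the allelic comparison was which factors draw more RNA from one parental genome than from the other. Of the 70 expressed member records, 69 held allelic reads and could be tested, while the lncRNA record of Bop1 held no variant. These 69 records held 156103 allelic reads, 50.9% of them CAST, with a median of 1613 reads at 19 variants, against 397 reads at 13 variants over all 15935 expressed records with allelic reads. ASE was found in 4 of the 69 (5.80%), against a background of 14.1% of all tested records. CAST was higher in 3 of the 4, against 8.33% of all tested records, and S129 in 1, against 5.78%. All 4 calls were lost when a spread between reads of a gene beyond counting error was assumed (beta-binomial correlation 0.05), with adjusted exact p between 0.25 and 0.87, and all 4 remained at a correlation of 0.01.

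Most factors had near-equal RNA from both alleles, as did most tested records. The CAST share lay between 40% and 60% in 53 of the 69 records (76.8%), against 67.4% of all tested records, and the median absolute log2 fold change was 0.23 against 0.36. Among coding records alone, the shares were closer, 74.0% of members against 70.5% of all, and the medians were 0.23 against 0.33. Above equal shares lay 41 records and below them 28. At any fold, 35 of the 69 passed the adjusted p of 0.05, with CAST higher in 21 and S129 higher in 14. Over all tested records this held for 25.4% toward CAST and 22.9% toward S129. With 1 record per gene, the one with the most reads, 30 of 50 passed at any fold, 16 toward CAST and 14 toward S129. The coding records split evenly, with 26 above and 24 below equal shares.

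**Figure D2:**
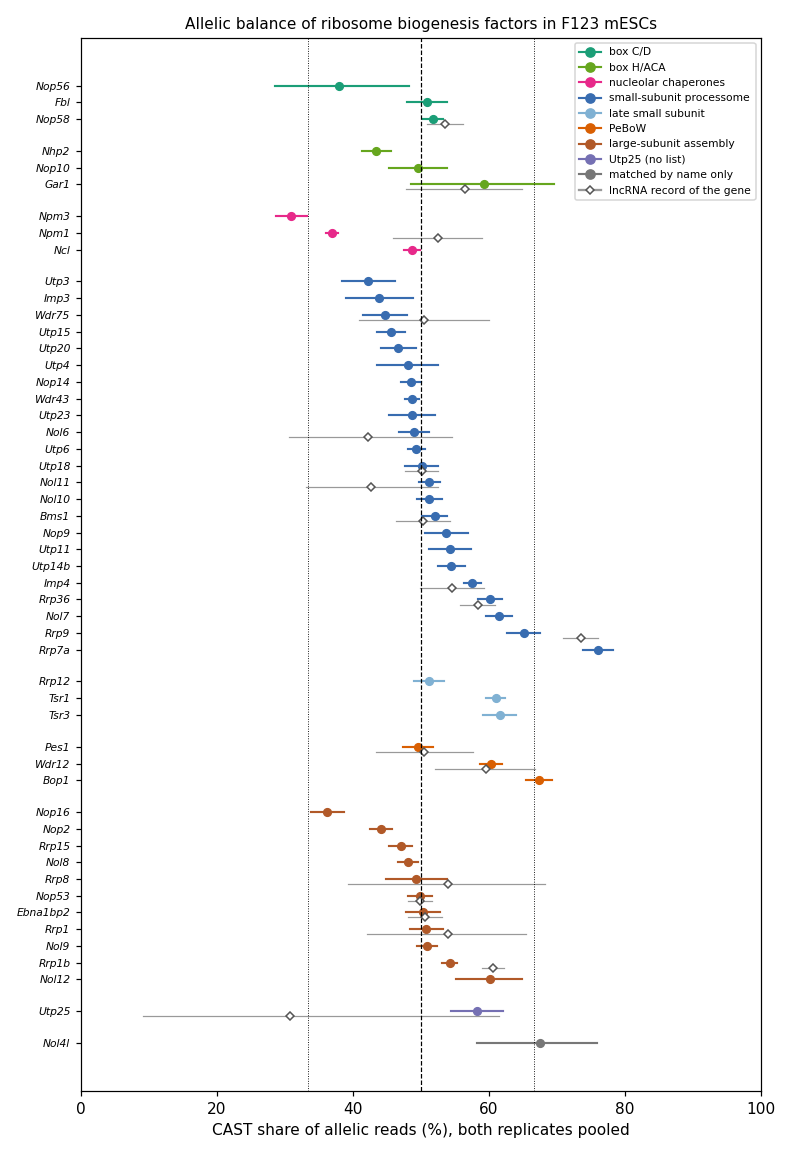
CAST share of allelic reads (%, both replicates pooled) of every member gene with allelic reads, grouped by role; filled circles are coding records, open diamonds lncRNA records, bars 95% Clopper-Pearson intervals, the dashed line equal shares and the dotted lines a 2-fold difference. Most points lie between 40 and 60%, Npm3 lies lowest of the coding records at 30.9% and Rrp7a highest at 76.1%.

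The largest imbalance was that of Rrp7a, a protein of the small-subunit processome on chromosome 15 (83113433 to 83122801, minus strand, mm10, ENSMUSG00000018040). Its coding record held 1164 CAST and 366 S129 reads, or 76.1% CAST (95% interval 73.9 to 78.2). This is a 3.18-fold difference (log2 fold change 1.67, SE 0.086, adjusted exact binomial p = 4.6e-95). The reads came from 10 variants, all exonic, and the S129 allele carried the non-reference base at 5 of them. Across all 15935 tested records this held for 11.1% of the variants, and 10032 records had no such variant. Serhl, a protein-coding gene on the opposite strand, overlaps Rrp7a over 3242 bp. It held 138 CAST and 164 S129 reads at 4 variants (45.7% CAST), nearer to equal shares. Whether the allelic counting used strand is not given in the sources used here, so reads of both genes in the shared span cannot be told apart.

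Bop1, the PeBoW protein, was the second coding record called toward CAST (chromosome 15, 76452989 to 76477277, minus strand, ENSMUSG00000022557). It held 1529 CAST and 740 S129 reads, or 67.4% CAST (65.4 to 69.3), at 17 variants of which 7 were exonic. The S129 allele carried the non-reference base at 0 of the 17. Its log2 fold change of 1.05 (SE 0.065, adjusted exact binomial p = 3.8e-61) lies just past the 2-fold minimum. Scx on the opposite strand shares 2007 bp with it and held no variant. Among 57 tested records of other genes within 500 kb, 4 were called toward CAST and 4 toward S129, with a median CAST share of 47.2%. Of all tested records, 8.33% were called toward CAST and 5.78% toward S129.

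Rrp9, which binds the U3 snoRNA in the processome, had 1 record on each side of the fold minimum (chromosome 9, plus strand, ENSMUSG00000041506). The lncRNA record (106475963 to 106481873) held 840 CAST and 303 S129 reads at 3 variants, or 73.5% CAST (70.8 to 76.0), and was called (log2 fold change 1.47, SE 0.097). The coding record (106477269 to 106485424) held 1013 CAST and 542 S129 reads at 15 variants, or 65.1% CAST. Its log2 fold change of 0.90 (SE 0.077) was past the adjusted p and under the fold minimum. Both records favored CAST, and they share 4605 bp, so they are not separate evidence. Parp3, on the opposite strand, overlaps the lncRNA record over 987 bp and held 35 CAST and 19 S129 reads. Of 25 tested neighboring records within 500 kb, 7 were called toward CAST and 1 toward S129, against 8.33% and 5.78% of all tested records. The S129 allele carried the non-reference base at 42.1% of the variants of these neighbors, against 11.1% of the variants of all tested records.

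Npm3 was the 1 member record called toward S129 (chromosome 19, 45747734 to 45749591, minus strand, ENSMUSG00000056209). It held 526 CAST and 1175 S129 reads, or 30.9% CAST (28.7 to 33.2), a 2.23-fold difference (log2 fold change −1.16, SE 0.076, adjusted exact binomial p = 1.8e-55). The reads came from 5 variants, 4 of them exonic, and the S129 allele carried the non-reference base at 0 of them. The antisense gene Gm15491 overlaps its end over 84 bp and was balanced, with 410 CAST and 427 S129 reads. Among 18 tested neighboring records within 500 kb, none was called toward CAST and 2 toward S129, against 8.33% and 5.78% of all tested records.

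**Figure D3:**
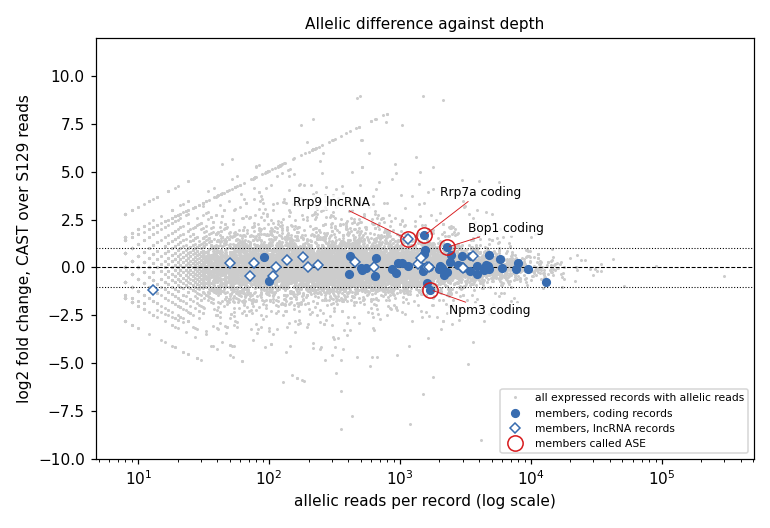
Log2 fold change of CAST over S129 reads against the allelic reads of a record (log scale), for all 15935 expressed records with allelic reads (grey) and for the 69 member records (blue circles coding, open diamonds lncRNA), with the 4 records called ASE circled in red. The dotted lines mark the 2-fold minimum. Outside them lie the called members, between −1.16 and 1.67 at 1143 to 2269 reads each, and the uncalled lncRNA record of Utp25 with 13 reads; records with an allele at 0 are drawn at the bound of 3 reads.

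Promoters of the called genes are shown where RefSeq promoters (GRCm38.p6) gave one, which was the case for 41 of the 53 member genes and for Rrp7a, Rrp9 and Npm3 of the called genes. Each is the stretch from 250 to 51 bases before the RefSeq start, 5′ to 3′ in the direction of the gene. Capitals mark motifs found on either strand: CACGTG (an E-box, the site of Myc family factors), CCGGAA (the core of ETS sites) and CCAAT (the NF-Y site). Strain variants are not marked, since their positions are not in the table. The stretch of Rrp9 belongs to the start of its coding record, which was not called, and lies inside the called lncRNA record. The last bases before the start and the first after it are not printed, and in that unprinted stretch Rrp7a and Npm3 hold an ETS core.
Rrp7a (chr15:83122852-83123051, gene on the minus strand, E-box and CCAAT): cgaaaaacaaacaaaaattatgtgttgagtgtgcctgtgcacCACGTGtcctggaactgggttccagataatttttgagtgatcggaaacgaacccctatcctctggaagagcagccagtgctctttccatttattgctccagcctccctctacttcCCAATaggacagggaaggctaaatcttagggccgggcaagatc
Rrp9 (chr9:106477059-106477258, gene on the plus strand, ETS core and CCAAT): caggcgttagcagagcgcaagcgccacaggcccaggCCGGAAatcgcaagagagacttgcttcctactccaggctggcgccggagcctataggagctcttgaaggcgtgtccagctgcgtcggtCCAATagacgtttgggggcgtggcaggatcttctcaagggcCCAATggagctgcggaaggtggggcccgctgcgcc
Npm3 (chr19:45749616-45749815, gene on the minus strand, none of the motifs in these 200 bases): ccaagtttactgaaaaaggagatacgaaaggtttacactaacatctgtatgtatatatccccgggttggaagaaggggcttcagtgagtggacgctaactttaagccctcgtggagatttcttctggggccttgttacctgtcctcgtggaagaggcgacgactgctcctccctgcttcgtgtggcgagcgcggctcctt

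Over the full windows of 300 bases, from 250 before to 50 after the start, an E-box stood in 14 of 50 member promoters (28%), in 12 genes. The share was 7.15% of all 32851 promoters and 10.4% of the promoters of expressed coding genes. The ETS core stood in 26 of the 50 (52%), against 14.9% and 29.2%. CCAAT stood in 28%, against 37.4% and 38.4%, and TATAAA in 8%, against 13.6% and 6.75%. The NRF1 site stood in none of the 50, against 0.971% and 2.22%. Member promoters had a median GC content of 59% and 22 CG pairs, against 61% and 21 of expressed coding genes. These are matches of letters on either strand, some genes have several promoters that overlap, and no binding was measured.

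Of the nucleolar chaperones, Npm1 was next to Npm3. Its coding record (chromosome 11, 33152510 to 33163072, minus strand) was the most deeply covered of all members, with 4821 CAST and 8237 S129 reads, or 36.9% CAST (36.1 to 37.8). The log2 fold change of −0.77 (SE 0.026, adjusted exact binomial p = 2.6e-196) was under the fold minimum. Only 4 of its 31 variants were exonic, so the counts rest mostly on intronic variants. At 0 of the 31 did the S129 allele carry the non-reference base. Ncl held 3718 CAST and 3916 S129 reads, or 48.7% CAST, with an adjusted exact binomial p of 0.051.

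Of the guide RNA particles, 4 box C/D and 4 box H/ACA records were tested, and none was called ASE, against the background of 14.1%. So few records cannot show a difference from that share. At any fold, 3 of the 6 coding records of these particles passed the adjusted p, against 5413 of all 10232 tested coding records. Of the box C/D proteins, Fbl, the methyltransferase fibrillarin, held 581 CAST and 560 S129 reads (50.9% CAST). Nop58 held 2339 CAST and 2172 S129 reads (51.9% CAST, adjusted exact binomial p = 0.030). Nop56 held only 38 CAST and 62 S129 reads at 9 variants, so its share of 38.0% had an interval from 28.5 to 48.3 and an adjusted exact binomial p of 0.045. That record covers only part of the gene, 1607 bp ending at 130276098, while Snord57 in Nop56 starts at 130278016. Of the box H/ACA proteins, Nhp2 held 942 CAST and 1227 S129 reads (43.4% CAST, adjusted exact binomial p = 6.2e-09). Nop10 held 273 and 278 reads (49.5% CAST), and Gar1 held 54 and 37, for which an interval from 48.5 to 69.5% shows how little 91 reads can resolve.

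The coding records of the 3 PeBoW genes had unlike CAST shares of their RNA. Beside Bop1, Wdr12 held 2088 CAST and 1372 S129 reads, or 60.3% CAST (58.7 to 62.0), under the fold minimum. Pes1 held 1043 CAST and 1061 S129 reads, or 49.6% CAST (47.4 to 51.7). The protein-coding gene 4930556J24Rik on the opposite strand covers 12804 of the 16030 bp of the Pes1 record. It held 353 CAST and 325 S129 reads (52.1% CAST), and reads of both genes in the shared span cannot be told apart. The intervals of the 3 coding records, which cover counting error only, did not overlap.

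Over the 23 genes of the processome, coding CAST shares ran from 42.2% to 76.1%, with a median of 50.1%. Rrp9 was next to the top at 65.1%. Of all 10232 tested coding records, 5413 passed the adjusted p at any fold, 2863 toward CAST and 2550 toward S129. Of the 23 processome records, 14 passed, 8 toward CAST and 6 toward S129. Toward S129 lay Utp3 with 271 CAST and 371 S129 reads (42.2% CAST), and Imp3, a protein bound to U3, with 178 and 228 reads (43.8% CAST). Wdr75 held 414 CAST and 513 S129 reads (44.7%) and Utp15 held 1044 and 1244 (45.6%); both belong to the subcomplex that first binds the precursor RNA. Toward CAST lay Nol7 with 1503 and 941 reads (61.5%) and Rrp36 with 1797 and 1189 (60.2%), under the fold minimum. The noncoding gene Gm26904 on the opposite strand overlaps the Rrp36 record over all of its 6892 bp. Among these genes, the other members of the subcomplex that first binds the precursor RNA were nearer to balance. Wdr43 held 4615 CAST and 4865 S129 reads (48.7%), Utp4 244 and 264 (48.0%), and Nol11 1975 and 1879 (51.2%).

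Imp4, another U3-bound protein, held 3323 CAST and 2448 S129 reads (57.6% CAST), and the S129 allele carried the non-reference base at 60 of its 106 variants. The antisense gene Gm28306 overlaps it over 4880 bp, with 1116 CAST and 1053 S129 reads. Utp14b, a retrocopy of the X-linked Utp14a, lies wholly within Acsl3 on the same strand. It held 1301 CAST and 1087 S129 reads (54.5%), close to the 55.6% of Acsl3 (2858 and 2279 reads), and reads of both genes, or of both Utp14 copies, cannot be told apart in it.

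For late maturation of the small subunit, Tsr1, a late assembly factor, held 2912 CAST and 1858 S129 reads (61.05% CAST). Srr on the opposite strand shares 2984 bp with it and had a like share, with 1443 and 931 reads (60.8%). Tsr3, an enzyme that modifies the small-subunit rRNA, held 943 CAST and 588 S129 reads (61.6%). Of 32 tested neighbors of Tsr3 within 500 kb, 16 were called toward CAST and 1 toward S129, with a median CAST share of 64.0%. The shares called among all tested records were 8.33% toward CAST and 5.78% toward S129. Rrp12, an export factor, was at 51.2% with 1032 and 983 reads.

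Among the 11 large-subunit factors outside the PeBoW complex, none of 16 tested records was called ASE, against the background of 14.1%. At any fold, 7 of the 16 passed the adjusted p of the exact binomial test, against 48.3% of all tested records. Nop16 came closest, with 585 CAST and 1030 S129 reads, or 36.2% CAST (33.9 to 38.6) and a log2 fold change of −0.82. At 0 of its 16 variants did the S129 allele carry the non-reference base. Nop2, which methylates the large-subunit rRNA, held 1702 CAST and 2153 S129 reads (44.2%). Nol12 leaned to CAST with 250 and 166 reads (60.1%). Ebna1bp2, Rrp1, Rrp8, Nol9 and Nop53 lay between 49.3% and 50.9%, each with an adjusted exact binomial p over 0.05, between 0.33 and 0.99.

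Just outside the limits of the call stood Rrp9 (coding, log2 fold change 0.90), Nop16 (−0.82) and Npm1 (−0.77) for the fold, and Nol4l for expression. The coding record of Nol4l held 79 CAST and 38 S129 reads (67.5% CAST) at a TPM of 0.835, with a log2 fold change of 1.06 (SE 0.28). Ordered by CAST share, the coding records with at least 100 allelic reads ran from Npm3 (30.9%), Nop16 (36.2%) and Npm1 (36.9%) to Bop1 (67.4%), Nol4l (67.5%) and Rrp7a (76.1%). The intervals of Nop16 and Npm1 overlapped, as did those of Bop1 and Nol4l.

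Of the genes, 22 had both a coding and an lncRNA record, which can share reads. In 13 of them 1 record lay within the other and the outer one held further reads, so the reads of the inner span could be taken from those of the outer record. The 95% intervals of the inner span and of the rest were apart in 2 of the 13, Npm1 and Rrp1b, and overlapped in the other 11. In Npm1, the 1252 bp of the inner lncRNA record held 124 CAST and 112 S129 reads at 4 variants (52.5% CAST, 46.0 to 59.1). The rest of the gene held 4697 and 8125 reads at 27 variants (36.6%, 35.8 to 37.5). In Rrp1b, the inner 1113 bp held 2184 CAST and 1423 S129 reads at 8 variants, 7 of them exonic (60.5%, 58.9 to 62.1), at 184 TPM. The rest of Rrp1b held 2127 and 2212 reads at 102 variants (49.0%, 47.5 to 50.5). The share of the whole coding record, 54.3% CAST, thus averages a CAST-leaning inner span and a near-equal rest. Utp25 had the widest gap, 27.5 percentage points between its records, but its lncRNA record held 4 CAST and 9 S129 reads at 1 variant. The records of Utp18 and those of Nop53 held the same reads and each pair counts as 2 among the 69.

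**Figure D4:**
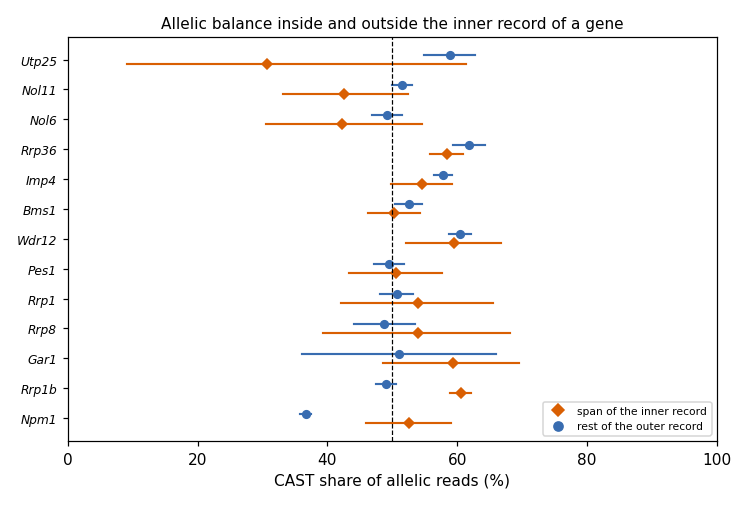
CAST share of allelic reads (%) in the span of the inner record (orange diamonds) and in the rest of the outer record (blue circles) for the 13 member genes with nested records; bars are 95% Clopper-Pearson intervals and the dashed line marks equal shares. Only for Rrp1b and Npm1 are the bars apart, with the inner span 11.5 and 15.9 percentage points higher, respectively.

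By position, 6 tested records of 4 genes lay on chromosome 17, and all passed the adjusted p at any fold, 5 toward CAST (Tsr3 and both records of Rrp1b and of Rrp36) and 1 toward S129 (Wdr43). On chromosome 15, 3 of 4 tested records leaned to CAST at any fold (Rrp7a, Bop1 and Nol12), while Utp23 was at 48.7%. On chromosome 13 all 4 tested records passed at any fold, 3 toward S129 (Nop16, Nol8 and Utp15) and 1 toward CAST (Nol7). Beside these counts stand the 25.4% and 22.9% of all tested records that passed toward CAST and S129, and the 3 chromosomes were picked after their values were seen. Of the 75 records, 23 overlap another protein-coding or long noncoding gene, 22 of them on the opposite strand.

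A fixed list of 90 further genes of ribosome assembly, which the name rule does not reach, gave 121 tested records, of which 8 were called ASE (6.61%), 4 toward each allele. Over all tested records 14.1% were called, 8.33% toward CAST and 5.78% toward S129. Toward CAST were Nsa2 (3549 CAST and 769 S129 reads), Rrs1 (233 and 37), Rsl24d1 (1403 and 359) and the lncRNA record of Pno1 (34 and 16). The coding record of Pno1 held 172 CAST and 136 S129 reads and did not pass (adjusted exact binomial p = 0.091). Toward S129 were Mrto4 (350 and 746), both records of Brix1 (561 and 1157 in the coding one) and the lncRNA record of Mdn1 (17 and 43). The coding record of Mdn1, with 5439 CAST and 5094 S129 reads, passed the adjusted p at any fold toward CAST, the opposite direction. The median absolute log2 fold change of this list was 0.25, beside 0.23 for the members and 0.36 over all tested records.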

How the data were processed

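RNA-seq of 2 F123 replicates was analysed as 1 group. Allelic counts, as deposited, came from GATK ASEReadCounter, which the authors ran at variants in exons and introns, after alignment to mm10 with STAR (version 2.7.2c, from the submitters' processing notes) and duplicate removal, and summed over variants and replicates. For the deposited TPM values the authors scaled HTSeq counts over exons and introns. The authors' fractions (ASE ratio, share of variants), p-values, log2 fold changes and classes in the deposited table were not used. A record held 8 to 295934 allelic reads, with a median of 289.

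Calls, intervals and standard errors were recomputed from the counts in Python (version 3.11.15) with scipy (1.17.1), numpy (2.4.6), pandas (2.3.3) and matplotlib (3.10.9), and tested on simulated data. Calls over the table were adjusted together and the members printed. Members and lists were chosen with earlier results of these data known. Named records were those called ASE, the 12 highest by TPM, the first and last 3 coding records by CAST share with at least 100 reads, members of the 4 smallest particles and complexes, genes whose records differed by over 10 percentage points, records without expression or variants, and called genes of the further list. Others, such as Imp4, Utp14b, Nol7, Tsr1, Tsr3 and Rrp1b, were named after their values were seen. Start and end of 75 of 75 member transcripts matched GENCODE M21. A set of 12 alternatives changed the read, variant and TPM minimums, the null share, the spread, the fold and p thresholds and the records per gene.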

Additional observations from a re-analysis of the deposited data

How the results depend on the processing

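Of the 4 ASE calls of members, 4 remained with at least 20 or 100 allelic reads, at least 3 variants or a TPM of at least 5. They also remained at an adjusted p of at most 0.001. These settings could not remove them, since the 4 records held at least 1143 reads, 3 variants and 19.2 TPM. Their adjusted exact binomial p was at most 1.8e-55. All 4 further remained with the CAST share of all allelic reads as the null and at a beta-binomial correlation of 0.01. At a correlation of 0.05 the calls fell to 0 of members in either direction and to 2 records of the further list, against 3.06% of all tested records. With a 1.5-fold minimum, 15 member records (11 toward CAST, 4 toward S129) and 23 of the further list were called, against 25.8% of all tested records. With no fold minimum the numbers were 35 (21 toward CAST, 14 toward S129) and 68, against 48.3%. Without the TPM minimum Nol4l was added, making 5. With 1 record per gene, 3 member calls were left, since the lncRNA record of Rrp9 is not the deeper one, and 5 of the further list. Over 812 comparisons of a member's call with an alternative, 765 stayed on the same side, 43 gained a call and 4 lost one, all 4 at the correlation of 0.05. A record under the 2-fold minimum can gain a call only where that minimum is lowered, so many of the 765 could not change. With 1 read added to each allele, log2 fold changes moved by at most 0.17.

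No paired analysis was possible because the table pools both replicates in 1 column per allele, and for the same reason no replicate was left out. Depth limits records such as Nop56, Gar1, the lncRNA record of Utp25 and the inner span of Npm1, whose intervals are over 10 percentage points wide.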
